A study of Saccharomyces cerevisiae S288C with 18 samples.

Results

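RNAs that co-purified with Lsm1-TAP, collected on IgG-coupled magnetic beads, were compared with the RNAs that the same procedure recovered from BY4741, a strain in which no protein carries the tag. The comparison uses 6 of the 18 libraries of the series, 3 of Lsm1-TAP and 3 of the control purification, which are all the libraries with these labels. The tag (calmodulin-binding peptide, TEV protease site and protein A) is fused to the C-terminus of Lsm1 at its own locus, in a BY4741 strain that carries the HIS3MX6 marker beside it. Both strains were grown in YPD at 30°C to exponential phase, and the study describes 3 replicated experiments for each condition. The other tagged purifications of the series (Upf1-TAP, Pab1-TAP and Rpl16a-TAP, 3 libraries each) are used only to see which differences were particular to Lsm1-TAP.

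Lsm1 is the subunit that distinguishes the cytoplasmic Lsm1-7 ring from the nuclear Lsm2-8 ring, which binds U6 snRNA. With Pat1, the Lsm1-7 ring binds the 3′ end of mRNAs whose poly(A) tail has become short and stimulates removal of the cap by Dcp2 and its partner Dcp1. The decapped RNA is then degraded from its 5′ end by Xrn1. An untagged purification measures the RNA that sticks to beads and IgG, and is the background against which RNA held by Lsm1 has to be seen. Counts give each RNA as a share of its library, so that the amount of RNA recovered on the beads is not known from them.

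The tag is inserted before the stop codon of the LSM1 gene (chromosome X, 187126 to 187644, minus strand, R64), and its cassette separates the reading frame from the native 3′UTR. The last codons of the gene are shown because they mark that junction, with the stop codon in capitals.
LSM1 chrX:187126-187155, minus strand: tacgatttccataaatctgacatgtacTAA

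Reads of the LSM1 reading frame did not separate the groups, at 41.2, 59.4 and 46.5 CPM (reads per 1000000 counts of the library, after TMM scaling) in Lsm1-TAP replicates 1 to 3 and 53.9, 40.6 and 50.2 in control replicates 1 to 3. The LSM1 3′UTR stood at 6.31, 6.42 and 8.31 CPM in Lsm1-TAP and at 16.4, 23.2 and 21.7 CPM in the control. All 3 Lsm1-TAP libraries were below all 3 control libraries, with a log2 fold change of -1.54 ± 0.48 (SE) and an edgeR adjusted p of 0.24. Set against the frame of the same gene, the log2 ratio of 3′UTR to frame reads was -2.70, -3.20 and -2.48 in Lsm1-TAP. In the control it was -1.71, -0.81 and -1.21. The difference of means was -1.55 (two-sided exact permutation test, p = 0.1, the smallest that 3 against 3 allows). The ratio ran from -2.32 to -0.02 over the 12 libraries of the control and the other tagged strains. Against these 12 together, a two-sided exact permutation test gave p = 0.0022, the smallest the design allows. That test treats libraries of different purifications as alike. LEU2 and MET17, which BY4741 lacks, had 0 reads in all 18 libraries, and URA3 had 0 in these 6. Every strain of the series shares these missing genes, so that only the LSM1 3′UTR ratio bears on which libraries carry the tag on Lsm1. The same ratio was not low for every tagged gene. For NAM7, which encodes Upf1, it was -2.41, -2.31 and -1.99 in Upf1-TAP and -2.79, -1.92 and -2.18 in the control. For PAB1 it was -13.53, -13.7 and -10.56 in Pab1-TAP and -5.83, -5.77 and -5.21 in the control. The cause of the LSM1 difference was not tested.

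Total counts were 5244702 to 10939069 in Lsm1-TAP and 4112276 to 5857931 in the control. Ribosomal RNA was abundant in replicate 3 of Lsm1-TAP (8.02%) and replicates 2 and 3 of the control (12.4% and 14.4%). It made up at most 0.019% of counts in the other 3 libraries. Counted as ribosomal RNA were the rRNA features, the mitochondrial rRNAs and the frame YLR154C-G, which lies in the ribosomal DNA. Another frame within the ribosomal DNA, YLR154W-E, went the opposite way, with 1.1% and 8.24% of counts in Lsm1-TAP replicates 1 and 2 and 3.45% in control replicate 1, against at most 0.0112% in the first 3 libraries. Values within these sets of libraries, Lsm1-TAP 1 and 2 against control 1 and Lsm1-TAP 3 against control 2 and 3, are therefore given beside the main results as differences of log2(CPM + 0.5).

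Across the transcriptome the Lsm1-TAP and control libraries differed little. Of the 12582 features tested (reading frames, exons, introns, UTRs and non-coding RNAs), edgeR called 0 at an adjusted p under 0.05 (background 0%), while DESeq2 called 167 and limma voom with sample weights called 252. The edgeR count was 33 without Lsm1-TAP replicate 3, 1 without Lsm1-TAP replicate 1 and 0 without any one of the other 4 libraries. With a term for the libraries rich in ribosomal RNA, edgeR called 187 (1.49%), of which 176 were higher and 11 lower. With a term for the replicate number in its place, edgeR called 422, the most of any setting. At an unadjusted p under 0.05, edgeR gave 832 features higher in Lsm1-TAP (6.61%) and 252 lower (2%). The 3 Lsm1-TAP libraries were all above the 3 control libraries for 1087 features (8.64%) and all below for 682 (5.42%). Fold changes had a median absolute log2 value of 0.403 over all features and 0.326 over the 4554 with a mean of at least 20 CPM, of which 70.2% lay within 0.5 of 0. Against the same control libraries that value was 0.526 for Rpl16a-TAP (38 features called, 0.302%), 0.737 for Pab1-TAP (2053, 16.3%) and 0.970 for Upf1-TAP (4239, 33.7%).

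Replicates differed from one another about as much as the groups did. Over the 4554 features, the median difference between 2 libraries was 0.386 to 0.670 on the log2 scale within Lsm1-TAP, 0.246 to 0.573 within the control and 0.291 to 0.817 between them. Pearson's r of log2 CPM across features was 0.732 to 0.887 within Lsm1-TAP, 0.790 to 0.961 within the control and 0.639 to 0.944 between them. The closest library to Lsm1-TAP replicate 2 was control replicate 1 (r = 0.943), and the closest to Lsm1-TAP replicate 3 was control replicate 3 (r = 0.944), which are in each case libraries with a like share of ribosomal RNA. The median SD over replicates was 0.429 in Lsm1-TAP and 0.376 in the control, against a median difference of group means of 0.333. That difference was over 2 pooled SDs for 446 features (9.79%). The low and high ribosomal RNA comparisons shared 56 features with a difference over 1, of 144 in the first and 111 in the second. Under -1 they shared 12, of 67 and 100, and r across features between the differences was 0.376.

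**Figure D1:**
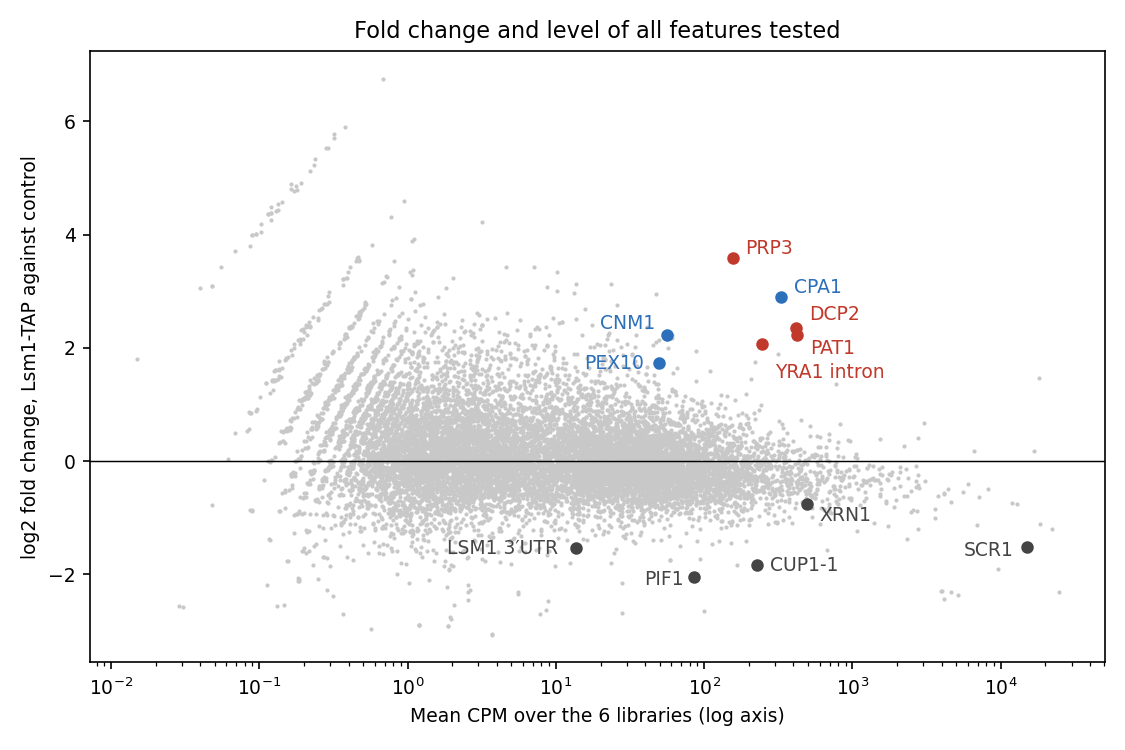
Log2 fold change of Lsm1-TAP against control (vertical axis) and mean CPM over the 6 libraries (horizontal log axis), 1 point per feature. PRP3, DCP2, PAT1 and the YRA1 intron (red) and CPA1, CNM1 and PEX10 (blue) lie above 1.7, CUP1-1 and PIF1 (dark) below -1.8, and the stripes at the left are features of few reads.

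The features that stood highest over the control fell into groups that the other purifications tell apart. Among the 12 largest increases over features with a mean of at least 20 CPM and no overlap between the groups, all 12 had an unadjusted p under 0.05, and the smallest adjusted p was 0.0551. With the ribosomal RNA term all 12 were called, at edgeR adjusted p from 4.06e-06 to 0.0254. The 12 were picked by their values in these same libraries, so that these p-values are not separate support for them. For 4 of the 12 (PRP3, DCP2, PAT1 and the YRA1 intron) Lsm1-TAP was also higher than each of Upf1-TAP, Pab1-TAP and Rpl16a-TAP at an edgeR adjusted p under 0.05. This held for 50 of all features (0.397%). Over all features, 16.9% were called between Lsm1-TAP and Upf1-TAP (6.24% higher in Lsm1-TAP), 20.1% for Pab1-TAP (10.1% higher) and 7.83% for Rpl16a-TAP (4.97% higher). The control libraries do not enter those tests, but the Lsm1-TAP libraries that ranked the 12 do.

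PRP3 (chromosome IV, 1404445 to 1405854) encodes a protein of the U4/U6 snRNP, a splicing particle whose U6 snRNA is bound by the Lsm2-8 ring. Its mRNA stood at 86.9, 213.8 and 567.1 CPM in Lsm1-TAP replicates 1 to 3 and at 10.8, 37.3 and 23.9 CPM in the control. Every Lsm1-TAP library was above every control library, although the 3 differed widely among themselves. The log2 fold change was 3.59 ± 0.62 (12-fold, edgeR adjusted p = 0.0551 and 4.06e-06 to 0.38 over the alternatives), with 3.60 within the low and 4.22 within the high ribosomal RNA libraries and 2.64 without Lsm1-TAP replicate 3. Against the other tagged purifications PRP3 was higher in Lsm1-TAP by a log2 fold change of 4.28 ± 0.64 for Upf1-TAP (adjusted p = 0.000509), 4.52 ± 0.65 for Pab1-TAP (0.000625) and 3.77 ± 0.64 for Rpl16a-TAP (0.00338). Its 3′UTR, with 46, 65 and 166 reads in Lsm1-TAP and 0, 9 and 4 in the control, was likewise higher than in each of the other 3.

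DCP2 (chromosome XIV, 402652 to 405564) encodes the decapping enzyme itself. Its mRNA stood at 1409, 461.8 and 220.0 CPM in Lsm1-TAP and at 134.3, 150 and 126.7 CPM in the control. The control libraries lay close together, and Lsm1-TAP replicate 1 was far above replicates 2 and 3. The log2 fold change was 2.35 ± 0.50 (adjusted p = 0.0757) and 1.32 without Lsm1-TAP replicate 1, and the difference was 2.58 within the low but 0.67 within the high ribosomal RNA libraries. The DCP2 3′UTR stood at 87.1, 27.4 and 13 CPM in Lsm1-TAP and at 3.0, 4.49 and 6.94 CPM in the control, again without overlap. Against the other purifications the frame was higher in Lsm1-TAP by 2.12 ± 0.50 for Upf1-TAP (adjusted p = 0.00953), 3.61 ± 0.53 for Pab1-TAP (0.000625) and 2.69 ± 0.51 for Rpl16a-TAP (0.00673).

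PAT1 (chromosome III, 250238 to 252628) encodes the partner of the Lsm1-7 ring. Its mRNA stood at 497.8, 983.3 and 617.0 CPM in Lsm1-TAP and at 208.2, 128.4 and 112.4 CPM in the control. The replicates of Lsm1-TAP were within about one doubling of each other and all above the control. The log2 fold change was 2.22 ± 0.53 (adjusted p = 0.0976), with 1.75 within the low and 2.36 within the high ribosomal RNA libraries and 1.91 to 2.54 when each of the 6 libraries was left out. Against Upf1-TAP, Pab1-TAP and Rpl16a-TAP it was higher by 3.85 ± 0.57 (adjusted p = 0.000486), 3.24 ± 0.56 (0.00159) and 1.75 ± 0.53 (0.0475). The PAT1 3′UTR was at 8.45, 8.66 and 12.1 CPM against 2.40, 3.28 and 1.83 CPM.

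**Figure D2:**
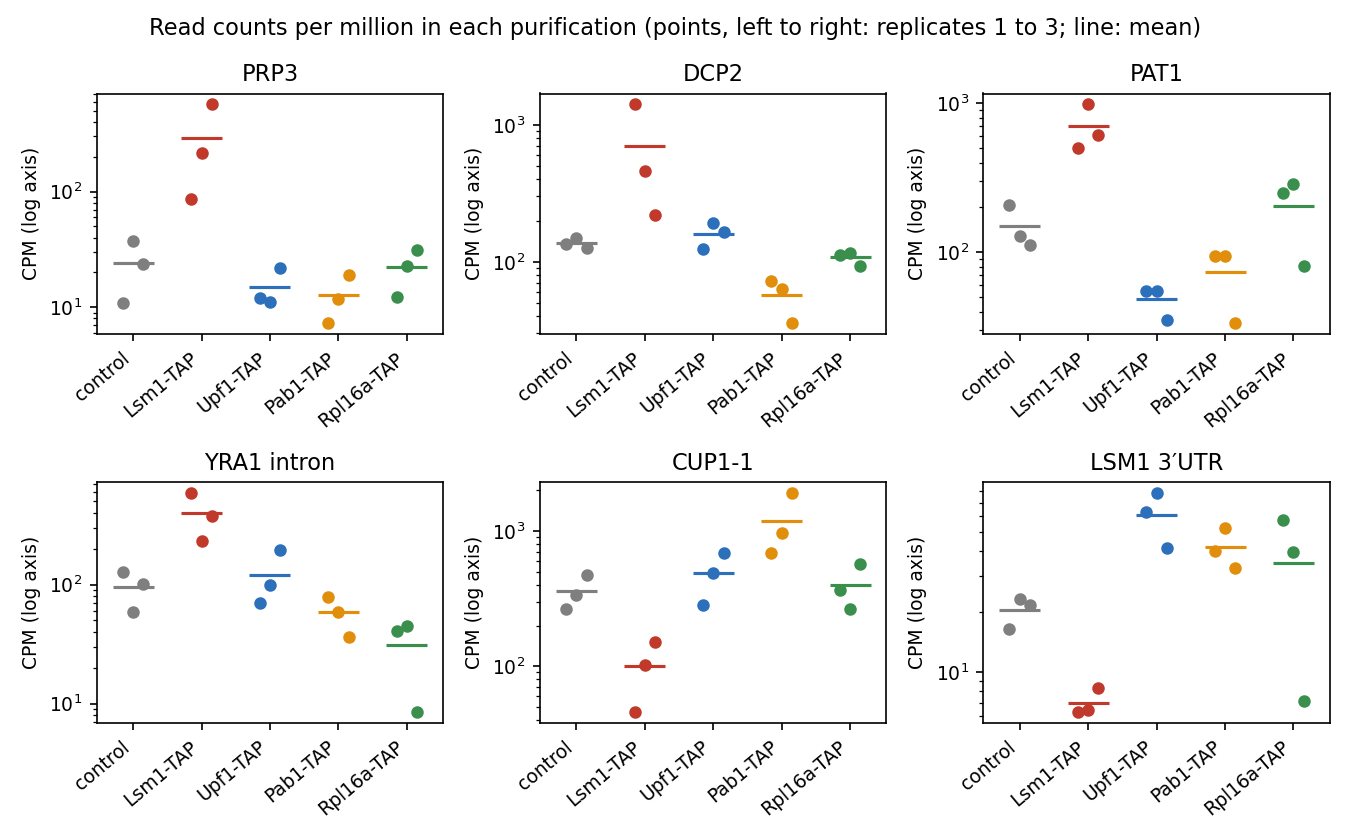
CPM on log axes of PRP3, DCP2, PAT1, the YRA1 intron, CUP1-1 and the LSM1 3′UTR in the control, Lsm1-TAP, Upf1-TAP, Pab1-TAP and Rpl16a-TAP (3 points per group, horizontal line at the mean). The Lsm1-TAP points of the first 4 panels lie above every other point, those of CUP1-1 lie below, and those of the LSM1 3′UTR lie below all but the Rpl16a-TAP point at 7.11 CPM.

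The fourth was the intron of YRA1 (gene at chromosome IV, 1236558 to 1238004, plus strand). Yra1, an mRNA export factor, limits its own expression by leaving its pre-mRNA unspliced, and the exported pre-mRNA is known in yeast to be decapped with the help of Edc3. The splice junctions and the branch region are shown because they mark where the intron reads begin and end, and because the branch region lacks the usual letters of yeast introns. Capitals mark the first 6 bases of the intron, the only ACTAAC in it and its last 3 bases.
YRA1 exon 1 end and intron start, chrIV:1236831-1236860: gatgctgtaagaGTATGTtaatacgtgaaa
YRA1 branch region, chrIV:1237572-1237601: tagagatatatgACTAACtttttttttttt
YRA1 intron end and exon 2 start, chrIV:1237591-1237620: tttttttttttattaTAGgaattttttgca

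The intron starts with GTATGT, as did 73.2% of the 82 tested introns that could be read from R64, and holds no TACTAAC, which 74 of those 82 (90.2%) hold on the sense strand. At 766 bases it was longer than all but 1 of the 82, whose median was 385 bases. YRA1 intron reads stood at 588.6, 232.2 and 373.7 CPM in Lsm1-TAP and at 126.9, 58.6 and 100.2 CPM in the control. The groups did not overlap, and the log2 fold change was 2.06 ± 0.55 (adjusted p = 0.144), with 1.54 within the low and 2.28 within the high ribosomal RNA libraries. YRA1 exon reads, which come from spliced and unspliced RNA together, stood at 331.9, 211.1 and 297.3 CPM against 169.2, 138.1 and 161.7 CPM, a log2 fold change of 0.84 ± 0.29.

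Read against the exons of the same gene, the YRA1 intron was at a log2 ratio of 0.83, 0.14 and 0.33 in Lsm1-TAP and -0.41, -1.24 and -0.69 in the control. The difference of means was 1.21 (two-sided exact permutation test, p = 0.1, the smallest that 3 against 3 allows). In the other tagged purifications the ratio ran from -5.21 to -0.37, and in input from -2.07 to -0.43, so that the 3 Lsm1-TAP libraries lay above all 15 others. The intron was picked for its reads in Lsm1-TAP against the control, and the ratio reuses those reads. Neither the permutation test nor this order is therefore separate support for it. Intron reads were higher in Lsm1-TAP than in Upf1-TAP by 1.72 ± 0.54 (adjusted p = 0.0369), than in Pab1-TAP by 2.77 ± 0.56 (0.00381) and than in Rpl16a-TAP by 3.60 ± 0.59 (0.00273).

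RPS28B, which was looked up after the YRA1 value was seen, encodes a ribosomal protein that represses its own mRNA through a 3′UTR element and Edc3. The RPS28B 3′UTR stood at 1512, 933.0 and 886.4 CPM in Lsm1-TAP and at 322.9, 624.3 and 353.3 CPM in the control, without overlap. Its log2 fold change was 1.36 ± 0.49 (adjusted p = 0.371), and that of the RPS28B frame was 1.15 ± 0.50. The frame of its paralog RPS28A was at -0.70 ± 0.48 with overlapping groups. The RPS28B 3′UTR did not separate Lsm1-TAP from Pab1-TAP (-0.18, adjusted p = 0.826).

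The other 8 of the 12 largest increases were CPA1, YJR149W, CNM1, CST9, LPX1, ISC10, HST1 and DIN7. For these, Lsm1-TAP was not called higher than Upf1-TAP, the purification of the NMD helicase (nonsense-mediated decay degrades mRNAs with a premature stop). CPA1, a subunit of carbamoyl phosphate synthetase whose mRNA carries an upstream reading frame, stood at 1038, 497.2 and 212.4 CPM in Lsm1-TAP, at 138.1, 45.3 and 51.6 CPM in the control and at 938.8, 1337 and 624.1 CPM in Upf1-TAP. Against the control the log2 fold change was 2.89 ± 0.75 (adjusted p = 0.125), and against Upf1-TAP it was -0.73 ± 0.70 (adjusted p = 0.489). CNM1, a protein of contacts between the nucleus and mitochondria, stood at 150.4, 64.7 and 62.6 CPM in Lsm1-TAP and at 24.8, 22.8 and 11.9 CPM in the control, with 2.22 ± 0.38 against the control and -0.65 ± 0.37 against Upf1-TAP.

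The meiotic gene ISC10 was the only one of these 8 called lower than Upf1-TAP, by -1.85 (adjusted p = 0.00692), while it stood at 115.9, 57.6 and 57.8 CPM in Lsm1-TAP and at 20.0, 18.5 and 15.3 CPM in the control. For YJR149W, CST9, LPX1, HST1 (a deacetylase related to Sir2) and DIN7 (a mitochondrial nuclease), the log2 fold change was 2.05 to 2.36 against the control and -0.13 to 0.28 against Upf1-TAP. A difference that misses the threshold does not show that these RNAs were held alike. All 12 were higher in Lsm1-TAP than in Pab1-TAP, and 10 were higher than in Rpl16a-TAP.

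Ranked by unadjusted p, the 5 first features with a mean of at least 20 CPM were PRP3, CNM1, the BUR2 3′UTR, PEX10 and the HPR1 3′UTR, each at an adjusted p of 0.0551. PEX10, a peroxisomal ubiquitin ligase, stood at 106.6, 54.4 and 69.5 CPM in Lsm1-TAP and at 20.6, 22.6 and 25.7 CPM in the control. The BUR2 3′UTR, of a cyclin gene, stood at 36.9, 28.8 and 31.0 CPM and at 9.01, 8.99 and 9.13 CPM, with small spread on both sides. The frame of PEX10 gave 1.74 ± 0.31, the BUR2 3′UTR 1.83 ± 0.33 and the HPR1 3′UTR 1.76 ± 0.32. Against Upf1-TAP the BUR2 3′UTR was lower by -1.72 (adjusted p = 0.00232), PEX10 was at -0.79 (0.0758) and the HPR1 3′UTR at -0.08 (0.87).

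Lsm1-TAP replicate 1 carried many of these values. Without it, the 8 genes from CPA1 to DIN7 stood at 1.42 to 2.18 against the control, all above 0. Of the 211 features with a mean of at least 20 CPM that did not overlap and were higher in Lsm1-TAP, replicate 1 was the highest of the 3 for 156. Of the 420 that were lower, it was the lowest for 256. The part of this library in those differences was not tested beyond leaving it out.

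**Figure D3:**
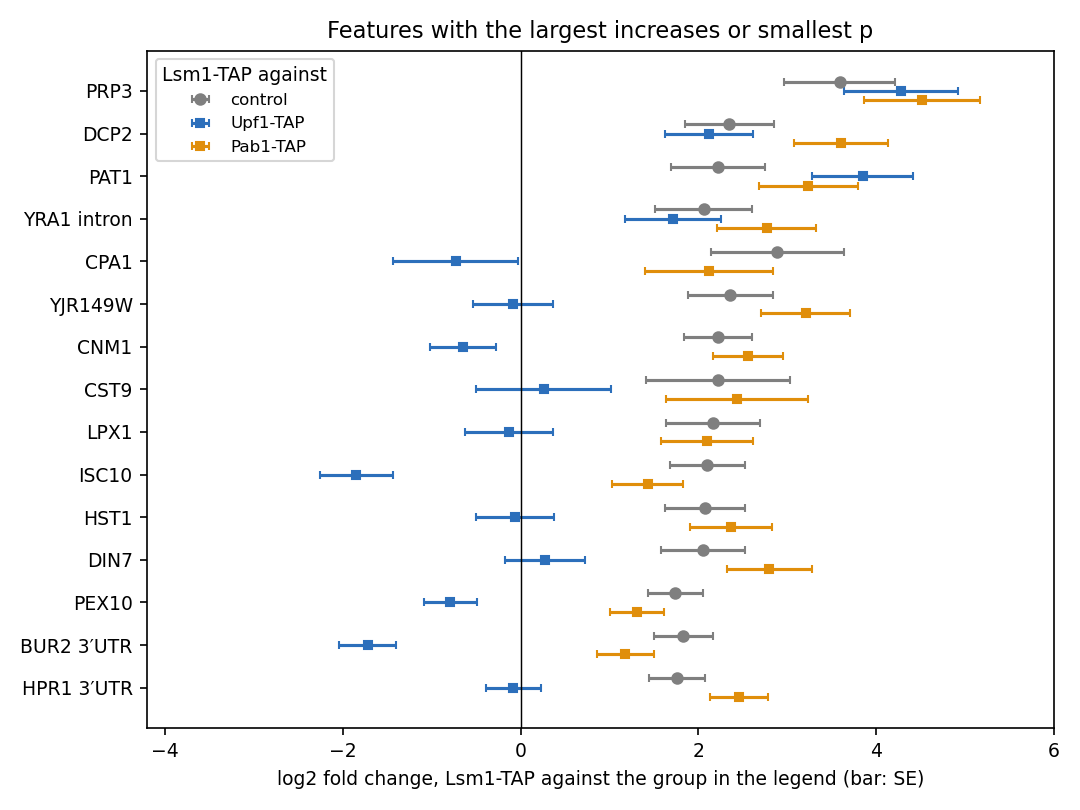
Log2 fold change (horizontal axis, bar 1 SE) of Lsm1-TAP against the control (grey circles), Upf1-TAP (blue squares) and Pab1-TAP (orange squares) for the 12 largest increases and 3 further features of smallest p. Against Upf1-TAP, PRP3, DCP2, PAT1 and the YRA1 intron lie at 1.72 to 4.28 and the other 11 features at -1.85 to 0.28.

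High values for PAT1 and DCP2 were not shared by the mRNAs of their partners. Of the 8 genes of the Lsm1-7/Pat1 complex, all were tested and PAT1 alone reached an unadjusted p under 0.05. The 7 ring subunits lay between -0.73 ± 0.51 (LSM7 exons, 10.1, 24.0 and 14.5 CPM against 22, 29.9 and 28.7 CPM) and 0.19 ± 0.44 (LSM5), with overlapping groups for each. Their median with PAT1 was -0.32, against 0.02 over all features. Among the 11 decapping and 5′-3′ decay factors, DCP2 was higher and EDC2 and XRN1 were lower at an unadjusted p under 0.05.

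XRN1, the exonuclease of this pathway, stood at 439.7, 336.6 and 321.8 CPM in Lsm1-TAP and at 624.6, 682.4 and 560.7 CPM in the control, with no overlap and small spread on both sides. Its log2 fold change was -0.77 ± 0.30 (adjusted p = 0.411), with -0.70 and -0.94 within the low and high ribosomal RNA libraries. EDC2, an enhancer of decapping, stood at 9.52, 22.7 and 22.1 CPM against 26.6, 36.3 and 57.3 CPM (-1.14 ± 0.41, adjusted p = 0.367). DCP1, which forms the decapping enzyme with Dcp2, was at -0.89 ± 0.44 (15.8, 18 and 36.2 CPM against 20.8, 57.2 and 51.5 CPM) with overlapping groups. The helicase DHH1 was at -0.30, EDC3 at 0.12, EDC1 at 0.25, SCD6 at 0.08 and PBY1 at -0.16. The scavenger decapping genes DCS1 and DCS2 were at -0.67 and 0.02.

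**Figure D4:**
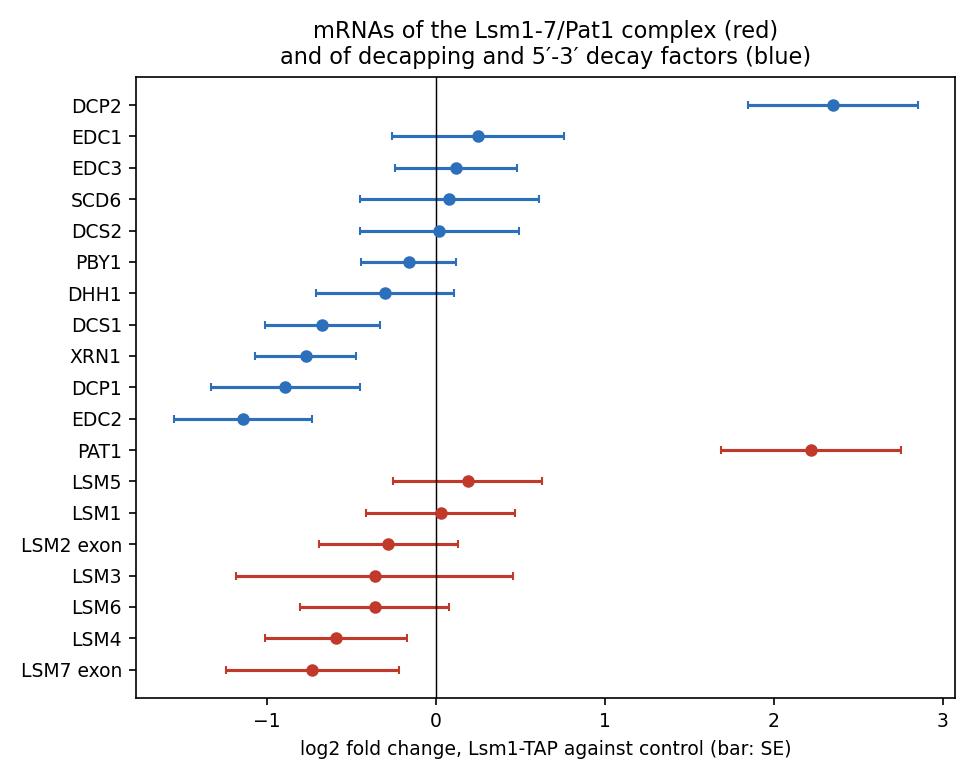
Log2 fold change of Lsm1-TAP against control (horizontal axis, bar 1 SE) for the mRNAs of the 8 genes of the Lsm1-7/Pat1 complex (red) and of 11 decapping and 5′-3′ decay factors (blue). PAT1 at 2.22 and DCP2 at 2.35 lie apart from the other 17, which lie between -1.14 and 0.25.

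Among the mRNAs of the other baits, those of PAB1 and RPL16A were near the control level. PAB1 was at 0.06 ± 0.49 and RPL16A exons at 0.16 ± 0.71, while NAM7, which encodes Upf1, was at 0.70 ± 0.36 (604, 325 and 255 CPM against 314, 242 and 174 CPM) with groups that overlap. The NAM7 3′UTR was at 0.88 ± 0.47 without overlap (edgeR adjusted p = 0.628). Of 5 NMD genes, NMD4 was the one at an unadjusted p under 0.05 (0.88), and of 13 deadenylation and poly(A)-binding genes NOT3 was (-0.74). HIS3, whose coding sequence BY4741 lacks only in part, was at 46.6, 85.6 and 50.8 CPM against 40.6, 24.0 and 27.9 CPM.

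Lower values were led by RNAs of several kinds. CUP1-1, the metallothionein gene, stood at 46.1, 102.3 and 151.4 CPM in Lsm1-TAP and at 265.7, 334.9 and 471.1 CPM in the control. The CUP1-2 copy has the same counts, so that the copies cannot be told apart. The groups did not overlap, the log2 fold change was -1.84 ± 0.52 (adjusted p = 0.186), and the within-set values were -1.94 and -1.39. CUP1-1 was also lower than in Upf1-TAP (-2.29 ± 0.53, adjusted p = 0.00888), Pab1-TAP (-3.57 ± 0.56, 0.000907) and Rpl16a-TAP (-2.00 ± 0.53, 0.0306). This held for 11 of all features (0.0874%), among them CUP1-1 itself, CUP1-2, the 3′UTRs of both copies and the LSM1 3′UTR.

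PIF1, a DNA helicase, stood at 38.0, 33.4 and 28.4 CPM in Lsm1-TAP and at 63.1, 277.7 and 71.0 CPM in the control. Its log2 fold change of -2.04 ± 0.49 rested on control replicate 2 and was -1.01 without it. SCR1, the RNA of the signal recognition particle, stood at 6505, 8740 and 7845 CPM against 18612, 21071 and 26658 CPM. The groups were far apart, yet p was 0.223 in the fit, whose dispersion comes from all 6 groups (-1.52 ± 1.21). As a share of all counts SCR1 was 1.04% ± 0.0419 (SD, n = 3) in Lsm1-TAP and 2.30% ± 0.234 (SD, n = 3) in the control (two-sided exact permutation test, p = 0.1, the smallest 3 against 3 allows). The snoRNA snR30, which acts in early rRNA processing, was at 8668, 23391 and 8397 CPM against 24419, 34279 and 34560 CPM.

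The remaining large decreases were COX3 (mitochondrial cytochrome oxidase), the Ty1 element YBLWTy1-1, VMA1 (vacuolar ATPase), NDE1 (mitochondrial NADH dehydrogenase), BNA1 (NAD synthesis) and GCV2 (glycine decarboxylase), with log2 fold changes of -1.46 to -1.14. GCV2 stood at 52.2, 57.9 and 44.0 CPM in Lsm1-TAP and at 134.5, 98.0 and 108.2 CPM in the control. NDE1 stood at 64.5, 70.6 and 104.8 CPM and at 220.4, 134.8 and 186.5 CPM. Both had groups without overlap, and neither passed the adjusted threshold (0.262 and 0.192). Within the low and high ribosomal RNA libraries GCV2 was at -1.28 and -1.22, while NDE1 was at -1.70 and -0.60.

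The medians of the unstable non-coding RNA classes lay above 0. XUTs, which accumulate when Xrn1 is missing, had a median log2 fold change of 0.59 over 522 features, with 72 at an unadjusted p under 0.05 higher and 3 lower. Of these 522, 13.8% did not overlap and were higher, beside 8.64% of all features, and 0.383% did not overlap and were lower, beside 5.42%. SUTs (stable unannotated transcripts) had a median of 0.46 over 167, with 22 higher and 2 lower, and 17.4% did not overlap and were higher. CUTs (cryptic transcripts cleared by the nuclear exosome) had a median of 0.26 over 274, with 22 higher and 1 lower. The 22 are 8.03% of CUTs, near the 6.61% of all features, and 6.2% of CUTs did not overlap and were higher, below the 8.64% of all features. The CUT median turned to -0.17 without Lsm1-TAP replicate 2. The XUT median was 0.36 with a term for ribosomal RNA in the fit and 0.97 without control replicate 1.

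SUT336 stood at 80.1, 40.8 and 59.4 CPM in Lsm1-TAP and at 17, 24.9 and 19.9 CPM in the control, a log2 fold change of 1.54 ± 0.34 (adjusted p = 0.0757). The more abundant SUT350, with a mean of 110 CPM, was at 0.56 with overlapping groups (edgeR adjusted p = 0.715). As a share of counts, XUTs took 0.445%, 0.201% and 0.158% in Lsm1-TAP and 0.220%, 0.113% and 0.115% in the control, which overlap, with Lsm1-TAP replicate 1 the highest. For SUTs the shares were 0.198%, 0.0982% and 0.0812% against 0.0835%, 0.0462% and 0.0451%, and only Lsm1-TAP replicate 3 lay below a control library. Both classes are of few reads, and fold changes moved with level. Features with a mean of up to 1 CPM had a median of 0.37 and those above 100 CPM -0.26. Beside reading frames of like level, XUTs and SUTs were lower where most of them lie and higher above that. Their median was 0.53 (345 features) beside 0.81 for reading frames at up to 1 CPM, and 0.42 (147) beside 0.56 at over 1 to 2 CPM. It was 0.66 (117) beside 0.49 at over 2 to 5 CPM and 0.80 (42) beside 0.21 at over 5 to 10 CPM. The part of level in the class values was not tested further.

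**Figure D5:**
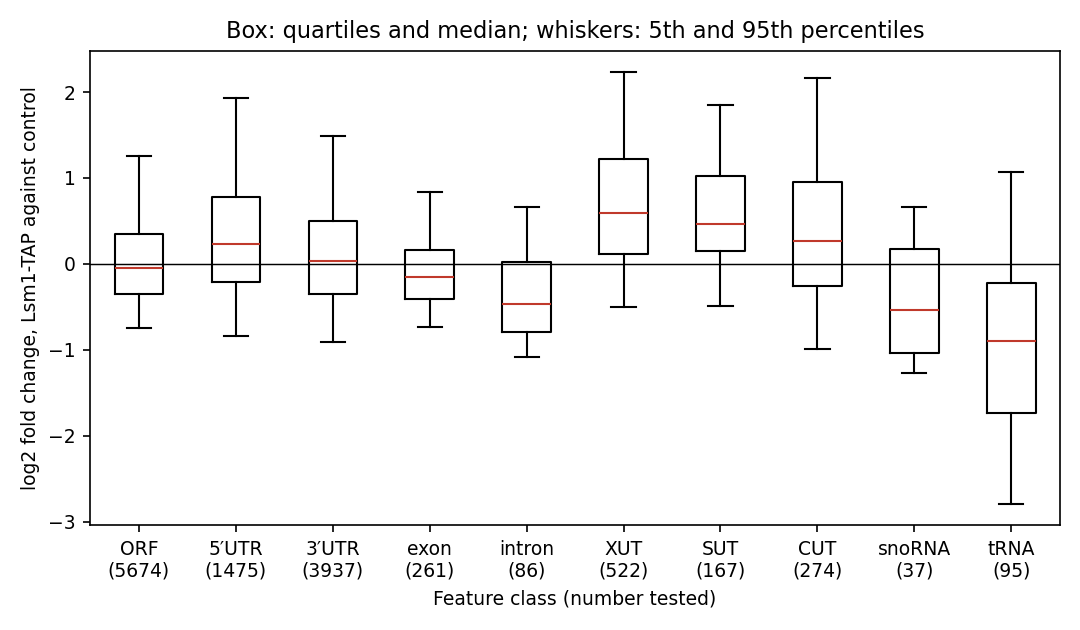
Log2 fold change of Lsm1-TAP against control (vertical axis) by feature class, with the number of features tested below each class, boxes at the quartiles, a red line at the median and whiskers at the 5th and 95th percentiles. XUT, SUT and CUT medians lie at 0.59, 0.46 and 0.26 and the intron median at -0.47.

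Most introns stood lower, unlike that of YRA1. Over 86 introns the median was -0.47, with 22 above 0, 28 (32.6%) that did not overlap and were lower, beside 5.42% of all features, and 3 that did not overlap and were higher. The 52 tested introns of ribosomal protein genes had a median of -0.57, with 25 lower without overlap and 0 higher. The RPL6B intron, named as the lowest of the list, stood at 5.00, 4.73 and 3.84 CPM in Lsm1-TAP and at 8.21, 13.7 and 11.9 CPM in the control. The most abundant of these introns did not follow: RPL28 was at 0.12 ± 0.38 and RPS13 at 0.44 ± 0.48, with overlapping groups. Exons and frames of ribosomal protein genes had a median of -0.25 over 136 features, near the -0.26 of all features above 100 CPM. The 136 were taken by gene name and include RPP1, which encodes a subunit of RNase P.

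mRNAs of abundant housekeeping proteins leaned the same way as other abundant RNAs. All 18 glycolysis and fermentation genes were below 0 with a median of -0.70, 5 of them without overlap, and none reached an unadjusted p under 0.05. Over all features, 5.42% were lower without overlap, and 6.61% were higher and 2% lower at that p, which is the background for the counts of these lists. FBA1, the aldolase, stood at 1926, 4475 and 3979 CPM in Lsm1-TAP and at 5415, 5090 and 6669 CPM in the control. Chaperone genes had a median of -0.49 (20 genes, 1 higher and 1 lower at an unadjusted p under 0.05), ribosome biogenesis genes -0.31 (30 genes, 1 lower) and exosome and Ski genes -0.24 (15 genes, 2 lower). Cell wall and secreted proteins had a median of 0.05 (22 genes, 1 higher), autophagy genes -0.22 (18 genes, 1 lower), core histones -0.23 (8 genes, 1 lower), cap binding and translation repression genes -0.26 (12 genes, none) and large multidomain enzymes -0.14 (15 genes, 3 lower). SSA3, a stress-induced Hsp70, was the chaperone gene that stood higher, at 131.7, 49.9 and 75.4 CPM in Lsm1-TAP and 31.0, 40.8 and 33.9 CPM in the control (1.28, adjusted p = 0.152). GLT1, glutamate synthase, was the lowest of the large enzymes, at 401.2, 346.7 and 401.2 CPM against 851.0, 954.9 and 684.2 CPM (-1.12, adjusted p = 0.352). SKI3, a subunit of the Ski complex that feeds mRNA to the cytoplasmic exosome, stood at 96.6, 77.3 and 104.8 CPM against 122.1, 223.9 and 158.4 CPM. All of these were without overlap. The 6 proteins of the U6 snRNP and its partners had a median of -0.06, with PRP3 the one above 0.

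Reads from 3′UTRs relative to the frame of the same gene did not separate the groups. Over 1795 genes the median log2 ratio was -3.24, -3.55 and -3.0 in Lsm1-TAP and -3.54, -3.24 and -3.24 in the control (two-sided exact permutation test, p = 1).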

How the data were processed

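RNA from the purifications was depleted of ribosomal RNA with RiboZero or Ribominus (the reagent of each library is not stated in the sources used) and made into TruSeq stranded libraries. According to the submitters' processing notes, the authors used cutadapt 1.16 for trimming, STAR 2.7 for alignment and featureCounts (Subread 1.6.2) for counting. The deposited values are raw counts for 23521 features. Members and lists were chosen with earlier results of these data known.

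Features with at least 10 reads in at least 3 of 18 libraries were kept. One edgeR 4.0.16 model (R 4.3.3, TMM, quasi-likelihood, 6 groups, 12 residual degrees of freedom) gave every contrast, adjusted by Benjamini-Hochberg over all features at 0.05. The fit was tested on simulated data. Ratios and shares per library had exact permutation tests. Alternatives used DESeq2 1.42.0, limma 3.58.1, other scalings and filters, a replicate block, a ribosomal RNA term and leaving out each library.

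Named features were the complex, decay, bait and auxotrophy lists, the 12 largest changes and 5 smallest p in each direction (mean of at least 20 CPM), and the most abundant members of other lists, of which only some are printed. Those chosen after their values were seen are RPS28B, RPS28A, the YRA1 exons, the PRP3 3′UTR, the RPL6B intron, FKS3, HNM1, ITR1, YRF1, SSA3, GLT1, SKI3, NMD4 and NOT3. Sequences, names and coordinates are from RefSeq's R64 annotation. Input libraries entered the fit and are otherwise used only for the YRA1 ratio and the reads of deleted genes.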

Additional observations from a re-analysis of the deposited data

How the results depend on the processing

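The count of features called, 0 in the main analysis, was most dependent on the processing. It was 0 with the 6 libraries alone, 1 with total count scaling, 4 without a filter, 5 with DESeq2 size factors in edgeR and 44 when a feature needed 10 reads in every one of the 6 libraries. It was 167 with DESeq2 (152 higher, 15 lower), 187 with a term for libraries rich in ribosomal RNA (176 and 11) and 252 with limma voom and sample weights (223 and 29). With a replicate block it was 422 (352 and 70). The deviations of same-numbered libraries correlated at 0.516, -0.202 and 0.549, which does not settle whether equal numbers mark libraries made together. Every replicate 1 was low and every replicate 3 high in ribosomal RNA in all 6 groups. For its comparison with RT-qPCR, the paper subtracted input from purified samples replicate by replicate. The main fit does not pair the libraries, so that what same-numbered libraries share stays in its spread. Leaving out 1 library gave 0 to 33, with 33 without Lsm1-TAP replicate 3 and 1 without Lsm1-TAP replicate 1. The cause of these differences was not tested. Total count scaling raised the median of all features by 0.376.

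PRP3, DCP2, PAT1, the YRA1 intron and CUP1-1 kept their direction under all 15 alternatives and passed the adjusted threshold in 10, 6, 5, 4 and 4 of them. The XUT median was 0.97 and the SUT median 0.77 without control replicate 1, and the SUT and CUT medians were 0.86 and 0.60 with total count scaling. Genes between -0.36 and 0.25 changed sign. With total count scaling LSM2 was at 0.11, LSM3 at 0.07, LSM6 at 0.02, DHH1 at 0.03 and PBY1 at 0.22. With the ribosomal RNA term LSM1 was at -0.21, LSM3 at 0.18, EDC1 at -0.12, SCD6 at -0.32, PAB1 at -0.22 and RPL16A at -0.33, and the larger decrease of snR6 (-1.13) turned to 0.30. LSM1 and SCD6 were both at -0.02 with the replicate block, and EDC3 was at -0.19 with limma. Leaving out each library gave LSM1 -0.12 to 0.14, LSM2 -0.65 to 0.00, LSM3 -1.41 to 0.06, LSM5 -0.15 to 0.48, EDC1 -0.17 to 0.50, EDC3 -0.24 to 0.35, SCD6 -0.10 to 0.19, PBY1 -0.41 to 0.01, DCS2 -0.32 to 0.72, PAB1 -0.12 to 0.39, RPL16A -0.43 to 0.54 and the CUT median -0.17 to 0.45. Depth limits features of few reads: 39 tested features had no read in the control.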

Other observations

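Chosen after their values were seen, the other features that were higher in Lsm1-TAP than in each of the 3 other tagged purifications included HNM1, ITR1, FKS3 and subtelomeric genes. They are examples and do not stand for the whole set. HNM1, the choline transporter, stood at 0.92 against the control, 1.81 against Upf1-TAP, 1.74 against Pab1-TAP and 1.18 against Rpl16a-TAP on the log2 scale. ITR1, the inositol transporter, stood at 0.89, 1.67, 1.03 and 1.45 in the same order. FKS3, a relative of the glucan synthase genes, stood at 1.28, 1.43, 2.32 and 2.45, but its Lsm1-TAP and control libraries overlapped, unlike those of HNM1 and ITR1. Frames and exons of the Y′ helicase family YRF1 were also among the 50, but at 0.09 to 0.28 against the control, and these near-identical copies share reads, so that they count as about 1 observation. Of the 50 features 16 lay above the control without overlap. Against the control 45 of the 50 were above 0 and 10 were over 1, with a median log2 fold change of 0.48. Many of the 50 thus stood near the control and were lower in the other tagged purifications.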
